A study of Mus musculus with 32 samples.

Results

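The 9 genes described here carry the type I interferon pathway from the detection of viral RNA to the transcription of interferon-stimulated genes: the RNA sensors Ifih1 and Dhx58, the adaptor Mavs, the transcription factors Irf3, Irf7 and Irf1, the receptor subunit Ifnar1, and Stat2 and Irf9, which act below the receptor. They were chosen by name from a fixed list, all 9 were found among the 20560 genes of the deposited table, and all 9 passed the filter on low values in every comparison. In 3T3-L1 cells, an established mouse preadipocyte line, 6 of them (Ifih1, Dhx58, Irf7, Irf1, Stat2 and Irf9) fell steeply in scramble control cells by day 3 of adipogenic differentiation and rose again by day 7. Of all genes tested, 38.2% were lower by test on the first step and 37.6% higher on the second. In cells with knockdown of Zbtb9, which encodes a member of the BTB zinc finger family, 5 of those 6 genes were lower than control at day 7, as were 22.6% of all genes tested. At day 11 these 5 were still low with shRNA 1 and nearer to control with shRNA 2. Zbtb9 itself then had 8.17 and 19.3 normalized reads with shRNA 1 and 2.13 and 4.25 with shRNA 2. How this order bears on the split was not tested. Mavs, Irf3 and Ifnar1 differed by at most 0.32 on the log2 scale, both between successive days in control and between knockdown and control.

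The series holds 32 RNA sequencing libraries of 3T3-L1 cells. At each of days 0, 3, 7 and 11 there were 4 libraries of scramble control (shCtrl, genotype labelled WT) and 4 of Zbtb9 knockdown, 2 with shRNA #1 and 2 with shRNA #2. Day 0 was reached 2 days after confluence and is labelled preadipocyte; dexamethasone, isobutylmethylxanthine and insulin were then added to all groups, insulin alone was kept from day 3 (days 3 and 7 are labelled premature adipocyte), and nothing was added from day 7 to day 11 (labelled mature adipocyte). Every group, the controls included, carries an shRNA, and the labels do not say how it was delivered. The replicates are labelled as biological, without saying whether shRNA was introduced into each culture separately, so p-values measure only the spread between these libraries.

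Zbtb9, the targeted gene, was covered by few reads. Its mean level in knockdown was 61.9%, 50.6%, 42.7% and 54.5% of control at days 0, 3, 7 and 11. At day 0 the knockdown libraries had 4.62 to 10.6 normalized reads against 13.5 to 14.9 in control, and at day 7 4.87 to 9.28 against 12.7 to 22.3, with no overlap on either day. At day 3 they had 0 to 8.99 against 6.35 to 12.6, which overlapped. At day 11 the library labelled shRNA 1 replicate 2 had 19.3, above 3 of the 4 controls (12.1, 12.1 and 17.9), and the other 3 knockdown libraries had 8.17 (shRNA 1), 2.13 and 4.25 (shRNA 2). The main day 11 results with shRNA 1 are therefore also given without that library. Each library held between 22280321 and 31073716 reads assigned to genes.

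In cells, the product of Ifih1 (MDA5) binds long double-stranded RNA, and the product of Dhx58 (LGP2) lacks the signalling domains of MDA5 and modulates its activity. MDA5 signals through Mavs on the outer mitochondrial membrane to the kinases Tbk1 and Ikbke, which phosphorylate Irf3 and Irf7, and these switch on interferon genes. Secreted interferon binds Ifnar1 and Ifnar2, the kinases Jak1 and Tyk2 phosphorylate Stat2, and a complex that holds Stat2 and Irf9 binds the interferon-stimulated response element (ISRE). Interferon gamma acts through another element, the gamma-activated sequence (GAS), and Irf1 is a classical target of it. Irf3 is present before any stimulus in most cell types, whereas Irf7, Ifih1, Dhx58, Stat2 and Irf9 are themselves interferon-stimulated in many.

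Promoter sequence was examined for these 2 elements, since 6 of the genes moved together. RefSeq windows (GRCm38.p6, from 250 bases before to 50 after the transcription start) were found for 8 of the 9 genes, in 10 windows. Dhx58 had no window and was not searched. They were searched on both strands for GAAA, any 2 bases and GAAA (ISRE) and for TTC, any 3 bases and GAA (GAS). The matches below lie in 4 different genes, so none overlaps another. Of 32851 promoter windows in the table, 3.44% held the first and 8.3% the second. The windows of Stat2 and Irf7 are shown first, as 2 of the genes that moved most, 1 with a match well upstream and 1 with none. They are printed 5' to 3' on the strand of the gene, with capitals for a motif match. Irf7 is printed up to the first base of an annotated exon of the gene. Stat2 is printed up to the RefSeq start, which lies before the annotated gene start at 128270559. Bases are counted from the RefSeq start.
Stat2: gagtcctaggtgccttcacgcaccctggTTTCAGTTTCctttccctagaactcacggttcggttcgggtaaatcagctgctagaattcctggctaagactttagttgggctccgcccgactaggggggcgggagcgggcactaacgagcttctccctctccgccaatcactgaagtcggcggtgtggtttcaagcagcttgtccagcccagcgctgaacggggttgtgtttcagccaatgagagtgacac
Irf7: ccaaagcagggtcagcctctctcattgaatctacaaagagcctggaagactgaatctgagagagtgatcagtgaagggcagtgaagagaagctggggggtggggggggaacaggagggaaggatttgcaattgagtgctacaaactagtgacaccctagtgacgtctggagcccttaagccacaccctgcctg
The Stat2 stretch covers chr10:128270248-128270497 (plus strand), with an ISRE match on the opposite strand at bases -222 to -213. The Irf7 stretch covers chr7:141266482-141266674 (minus strand). The other matches are shown as stretches of 30 bases.
Ifih1: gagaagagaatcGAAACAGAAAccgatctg
Irf1: aacagcctgatTTCCCCGAAatgatgaggc
Ifnar1: gggcgggggcgTTCACGGAAggggcggggc
The Ifih1 stretch (chr2:62646206-62646235, minus strand) holds an ISRE match at bases 32 to 41 after the start, in the first exon. The Irf1 stretch (chr11:53769913-53769942, plus strand) holds a GAS match at bases -90 to -82, and that of Ifnar1 (chr16:91485199-91485228, plus strand) at bases -5 to 3. Mavs, Irf3 and Irf9 had neither motif in their windows, as Irf7 did not. A match of letters describes the sequence only.

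**Figure D1:**
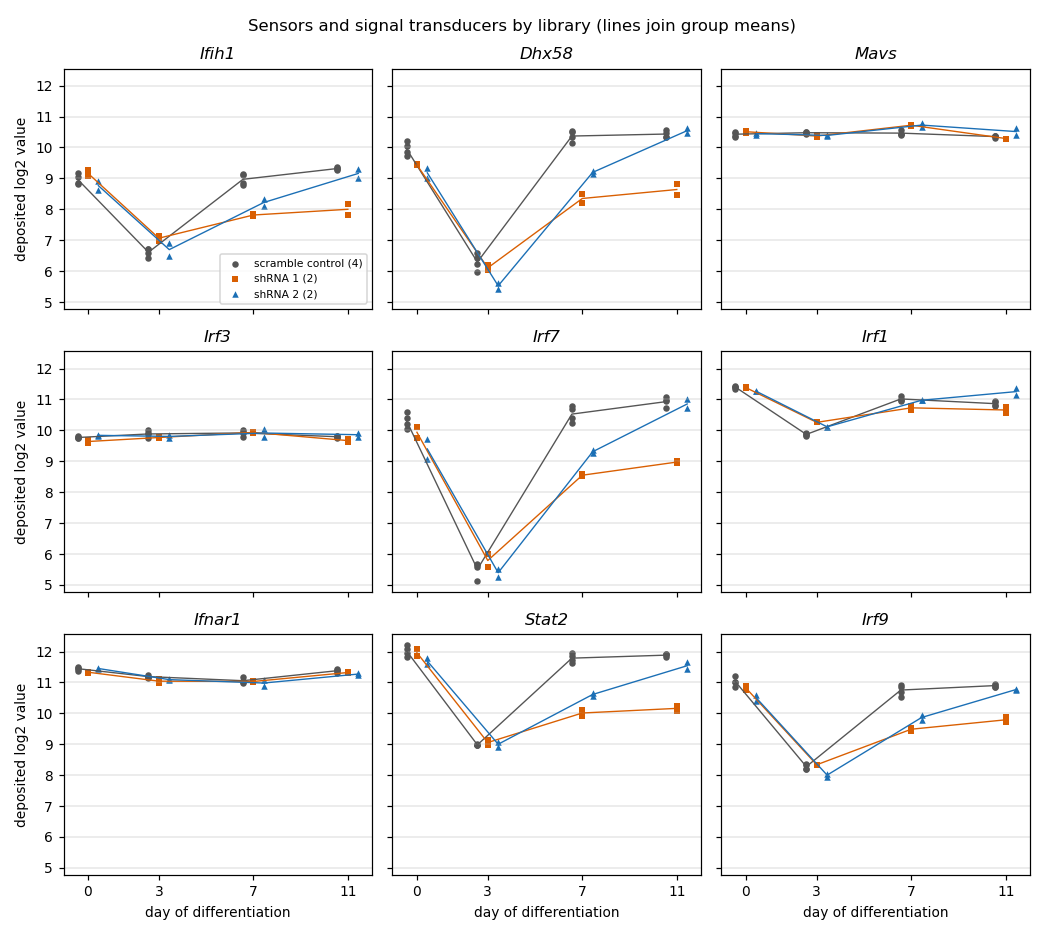
Deposited log2 value (y axis) of each gene in every library against the day of differentiation (x axis). Circles are the 4 scramble control libraries, squares the 2 of shRNA 1 and triangles the 2 of shRNA 2, drawn side by side at each day, and lines join group means. Ifih1, Dhx58, Irf7, Stat2 and Irf9 drop at day 3 and return by day 7, furthest in control, while Mavs, Irf3 and Ifnar1 stay nearly level.

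The genes differed in abundance in control cells. Per kilobase of exon at day 0, Stat2 was the highest with 978 ± 114 normalized reads (SD, n = 4), followed by Irf1 with 824 ± 21.9 and Ifnar1 with 717 ± 28.9. Irf9 (698 ± 71.1), Irf7 (568 ± 101), Mavs (446 ± 25.3), Dhx58 (435 ± 65.1) and Irf3 (398 ± 9.29) followed, each overlapping the gene before it. Ifih1 was lowest, at 96.4 ± 11.9. At day 3 the order was different, with Ifnar1 (595 ± 15.8), Mavs (460 ± 8.37) and Irf3 (434 ± 29.4) on top, the last 2 overlapping. Irf7 was then the lowest, at 9.38 ± 3.40, below Ifih1 at 14.6 ± 1.66. At days 7 and 11 Stat2 and Irf7 had the highest means, at 825 ± 82.4 and 663 ± 125 and then 883 ± 29.7 and 882 ± 88.9, with overlapping libraries on both days. At day 7 the libraries of Irf7 (527 to 798) also overlapped those of Irf1, Dhx58, Irf9 and Ifnar1.

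The first comparison asks how the 9 genes moved during differentiation in control cells alone. Tests are limma on the deposited log2 values, with p-values adjusted by the Benjamini-Hochberg method over all genes tested, and a call means an adjusted p under 0.05. From day 0 to day 3, 7 of 9 genes fell and none rose, where 76.6% of the 13421 genes tested were called (38.3% higher, 38.2% lower). From day 3 to day 7, 6 rose and Ifnar1 fell, against 74.2% called (37.6% higher, 36.6% lower). From day 7 to day 11, 6 were called, 3 in each direction, against 55% of all genes (28.9% higher, 26.1% lower). That count of 6 was 3 without control day 11 replicate 1 or 2, and 1 in a fit of all 32 libraries. Between day 0 and day 11, 3 were higher and 1 lower, against 64.6% (33% higher, 31.6% lower), and this count of 4 was 1 in the fit of all 32 libraries and 8 after rescaling to equal totals. The median log2 difference of the 9 genes was -2.36 for the first step and 2.36 for the second, and that of all genes tested was 0.0022 and 0.0073.

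Irf7 (chr7:141262706-141266481, minus strand) encodes the interferon-inducible factor that amplifies interferon production. Control libraries had 1443, 1238, 1103 and 1656 normalized reads at day 0, and 27.4, 24.3, 10.5 and 27.6 at day 3. At day 7 they had 1759, 1261, 1910 and 1418. No day 3 library came near any of the others. The day 3 mean was 1.65% of day 0, and the day 7 mean was 70.7-fold above day 3. On the log2 scale of the deposited values, which are drawn towards each gene's mean and so understate changes at few reads, the steps were -4.81 (SE 0.16) and 5.02 (SE 0.16). From day 7 to day 11 Irf7 rose by 0.41 (adjusted p = 0.0454), a call lost without any 1 of 10 of the 16 control libraries.

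Dhx58 (chr11:100694884-100704271, minus strand) fell from 882 to 1241 normalized reads at day 0 to 74.7, 40.2, 53.4 and 64.9 at day 3. It was back at 1539, 1195, 1578 and 1374 at day 7. The log2 steps were -3.66 (SE 0.13) and 4.08 (SE 0.13), and day 7 and day 11 did not differ by the test (0.07, 95% interval -0.20 to 0.34). Ifih1 (chr2:62595798-62646255, minus strand), the other sensor, had 473 to 610 reads at day 0, then 87.3, 86.7, 68.0 and 77.6 at day 3, and 582, 460, 590 and 475 at day 7. Its day 7 mean was 99.9% of its day 0 mean. At day 11 it had 663 to 707, above every control library of days 0 and 7, a rise of 0.35 from day 7 (SE 0.09, adjusted p = 0.000676 by limma). Over its alternatives the adjusted p of this rise ran from 0.000103 to 0.18. In both sensors all 4 day 3 libraries were below those of every other day. How many of all genes separate completely between days was not counted, for these genes or for Irf7.

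Stat2 (chr10:128270559-128292849, plus strand) and Irf9 (chr14:55603571-55610030, plus strand) encode subunits of the complex that binds the ISRE. Stat2 had 4519, 4108, 3706 and 4867 normalized reads in control at day 0 and 465, 475, 476 and 467 at day 3, which was 10.9% of day 0. The day 7 values, 3795, 3209, 4038 and 3477, were 84.4% of day 0. Irf9 went from 1922 to 2457 reads down to 268 to 303 and up to 1523 to 2016, steps of -2.75 (SE 0.07) and 2.48 (SE 0.07) on the log2 scale. Irf1 (chr11:53770014-53778374, plus strand), a factor that can bind similar elements on its own, had a shallower course, from 2644 to 2808 reads to 882 to 946 and back to 1992 to 2235. It did not regain its day 0 level, with a log2 difference of -0.54 (SE 0.04, adjusted p = 9.05e-13) between day 11 and day 0 (limma).

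Mavs (chr2:131234063-131248025, plus strand), the mitochondrial adaptor, had 1264 to 1511 normalized reads over all 16 control libraries. Neither of its first 2 steps passed the test (0.05 and -0.01). Irf3 (chr7:44997648-45002848, plus strand), the constitutive factor, had 851 to 1037 reads, and its steps were 0.11 (adjusted p = 0.0512) and 0.03. The day 7 to 11 differences of Mavs (-0.11) and Irf3 (-0.12) passed the test, and were lost in 4 and 13 of the 16 fits that left out 1 control library. Ifnar1 (chr16:91485238-91507441, plus strand), a subunit of the receptor, fell from 2675 to 2918 reads at day 0 to 2246 to 2395 at day 3, a step of -0.26. Its next step, -0.13, was not called once libraries were rescaled to equal totals. From day 7 to day 11 Ifnar1 rose to 2558 to 2754 reads, by 0.3 to 0.36 over the alternatives (adjusted p 5.18e-09 to 1.87e-05, limma). These coordinates are from GENCODE M21 (GRCm38). Exons of Dhx58, Irf1, Irf3 and Irf7 share 4.3%, 3.4%, 2.6% and 1.2% of their bases with a gene on the opposite strand, and Irf9 shares 2.3% with Rnf31 on its own strand. Whether counting used strand is not given in the sources used here.

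The second comparison is knockdown against control on each day, with both shRNAs in 1 group. At day 0 only Dhx58 was called, lower by -0.65, where 3.25% of 13216 genes were called (0.817% higher, 2.44% lower). At day 3 only Irf1 was called, higher by 0.32, against 26.7% of 13139 genes (14.6% higher, 12.1% lower). At day 7, 5 genes were lower (Dhx58, Irf7, Stat2, Irf9 and Ifih1) and 1 was higher (Mavs), against 47.6% of 13299 genes (24.9% higher, 22.6% lower). At day 11 none of the 9 was called, against 33% of 13281 genes (16.8% higher, 16.2% lower); by limma 2 of the 9, Stat2 and Irf9, had an unadjusted p under 0.05, and voom called 0. With the shRNAs as separate groups, and with 1 fit of all libraries, 5 of the 9 were called lower at day 11, and 3 were without shRNA 2 replicate 1. The shares over all genes above are those of the main fit, and the shares in these other fits are not given here. The median log2 difference of the 9 genes was -0.08, -0.10, -0.95 and -0.62 in order of day, beside -0.006, 0.0046, 0.0062 and -0.012 over all genes tested.

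At day 0, before induction, Dhx58 had 1107, 971, 882 and 1241 normalized reads in control, 703 and 718 with shRNA 1, and 669 and 522 with shRNA 2. All 4 knockdown libraries were below all controls, which 7.98% of genes also were. The difference of -0.65 (SE 0.12, adjusted p = 0.0183) was lost without control replicate 1, 2 or 4, and over all alternatives its adjusted p was 0.00866 to 0.437 (limma). Irf7 had the same mean difference of -0.65 with a wider spread (SE 0.21, adjusted p = 0.145), since its knockdown libraries ran from 545 to 1154 reads and its controls from 1103 to 1656. Irf9 had -0.36 (adjusted p = 0.0901).

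At day 3, when control levels were lowest, Irf1 had 946, 903, 882 and 892 normalized reads in control against 1202 and 1201 with shRNA 1 and 1088 and 1076 with shRNA 2. Every knockdown library was above every control, as in 15.5% of genes, and the log2 difference was 0.32 (SE 0.06, adjusted p = 0.000922 by limma). Its adjusted p was 2.82e-06 to 0.0684 over its alternatives, the highest with the replicate number as a block (0.29). Irf7 was at 10.5 to 27.6 reads in control and 14.99 to 40.9 in knockdown, which overlapped (0.08, 95% interval -0.26 to 0.43). Stat2 likewise overlapped, at 465 to 476 against 450 to 525 reads (0.05, interval -0.09 to 0.19).

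At day 7 Irf7 had 1759, 1261, 1910 and 1418 normalized reads in control, 356 and 378 with shRNA 1, and 671 and 624 with shRNA 2. No knockdown library reached the lowest control, and the means were 23.1% (shRNA 1) and 40.8% (shRNA 2) of the control mean. The log2 difference was -1.60 (SE 0.24, 95% interval -2.15 to -1.04, adjusted p = 0.00103 by limma). Irf7 had still risen from day 3 in the knockdown arms, 11.3-fold with shRNA 1 and 35-fold with shRNA 2, beside 70.7-fold in control.

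Stat2 at day 7 had 3795, 3209, 4038 and 3477 normalized reads in control, 1070 and 940 with shRNA 1, and 1603 and 1513 with shRNA 2. The groups did not overlap, and the log2 difference was -1.47 (SE 0.17, adjusted p = 0.000218 by limma). Its partner Irf9 had 2016, 1523, 1921 and 1682 reads in control, 734 and 675 with shRNA 1, and 998 and 865 with shRNA 2. That difference was -1.08 (SE 0.12, adjusted p = 1.6e-05 by limma). Stat2 stood at 27.7% of control with shRNA 1 and 42.9% with shRNA 2, and Irf9 at 39.4% and 52.2%.

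Among the sensors at day 7, Dhx58 had 352 and 285 normalized reads with shRNA 1 and 621 and 573 with shRNA 2, against 1195 to 1578 in control. Ifih1 had 211 and 223 with shRNA 1 and 320 and 276 with shRNA 2, against 460 to 590. The log2 differences were -1.60 (SE 0.24, adjusted p = 0.00118) and -0.95 (SE 0.12, adjusted p = 1.25e-05) by limma. Neither sensor overlapped between arms. In all, 5 of the 9 genes had every knockdown library below every control, as 20.9% of all genes tested did.

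For the remaining genes the values were closer together. Mavs had 1511, 1364, 1390 and 1387 normalized reads in control at day 7 and 1691, 1716, 1626 and 1786 in knockdown, all above control as in 23.3% of genes. Its log2 difference was 0.26 (SE 0.05, adjusted p = 0.00103 by limma), and it was 0.26 with each shRNA. Irf3 had 890 to 1037 reads in control and 894 to 1055 in knockdown (0.01, 95% interval -0.13 to 0.15). Ifnar1 had 2024 to 2304 and 1851 to 2168 (-0.05, interval -0.18 to 0.08). Irf1, at 1992 to 2235 against 1610 to 2033 reads, had a difference of -0.17 that did not pass (adjusted p = 0.0622), and it was called when libraries were rescaled to equal totals (-0.21, adjusted p = 0.0297; 0.0044 to 0.313 over its alternatives, limma).

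**Figure D2:**
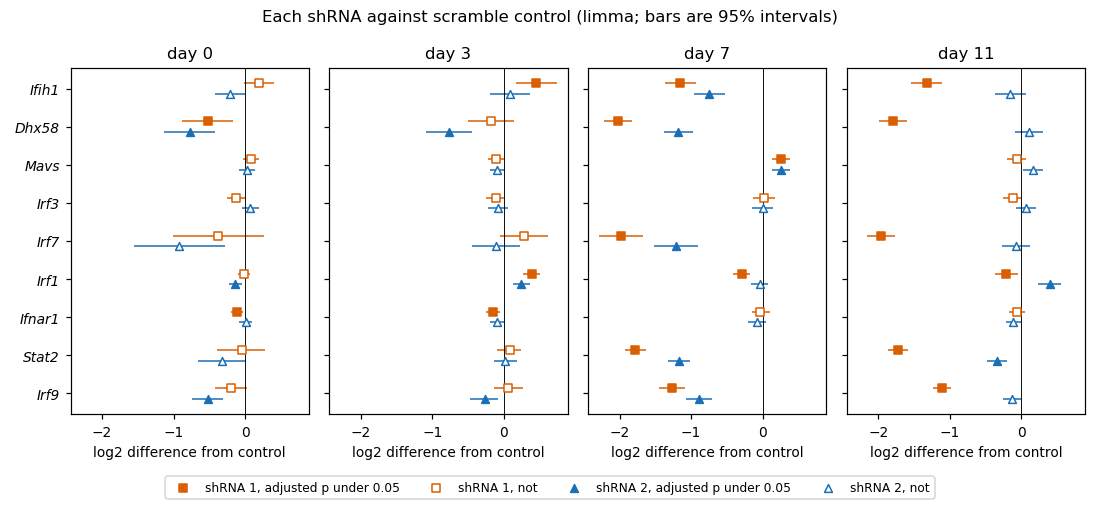
Log2 difference from scramble control (x axis) for each gene (y axis) and day (panels), with shRNA 1 as squares and shRNA 2 as triangles. Bars are 95% intervals from limma, and filled symbols have an adjusted p under 0.05. Dhx58, Irf7, Stat2, Irf9 and Ifih1 lie left of 0 with both shRNAs at day 7, whereas at day 11 only the shRNA 1 symbols remain far to the left.

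The third comparison takes the shRNAs one at a time. Both were set against the same control libraries, so their differences from control are not independent; the direct comparison of shRNA 2 with shRNA 1 uses no control values except for the shared estimate of spread. At day 7 with shRNA 1, 6 of 9 genes were lower and 1 higher, where 52% of all genes tested were called (27.7% higher, 24.3% lower). With shRNA 2, 5 were lower and 1 higher, against 46% (24% higher, 22% lower). At day 11 with shRNA 1, 6 were lower and none higher, against 43.6% (21.4% higher, 22.2% lower). With shRNA 2, only Stat2 was lower and only Irf1 higher, against 36.9% (17.4% higher, 19.4% lower). Set against shRNA 1, shRNA 2 was higher in 6 of 9 genes at day 7, against 16.4% called (7.52% higher, 8.9% lower), and in 7 of 9 at day 11, against 22% (11.6% higher, 10.4% lower). The day 7 count was 2 without shRNA 1 replicate 2 or shRNA 2 replicate 1, and 3 with voom or without trend: of the 8 fits that left out 1 library, 4 lost Irf7, 3 Ifih1, 2 Irf1 and 2 Irf9, and none lost Dhx58 or Stat2. The day 11 call of Mavs (0.22, adjusted p = 0.046 by limma) was lost in 7 of the 8 fits that left out 1 library, with an adjusted p of 0.0125 to 0.405 over its alternatives.

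At day 11 Irf7 had 2177, 2324, 1818 and 2124 normalized reads in control. With shRNA 1 it had 491 and 519, and with shRNA 2 it had 2212 and 1794. The shRNA 2 libraries lay on both sides of the lowest control, and the shRNA 1 libraries lay far below. The log2 difference from control was -1.96 (SE 0.09, adjusted p = 6.18e-10) with shRNA 1 and -0.08 (95% interval -0.27 to 0.12) with shRNA 2. The 2 shRNAs differed from each other by 1.88 (SE 0.11, adjusted p = 3.47e-08 by limma).

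Dhx58 showed the same split at day 11, with 349 and 450 normalized reads for shRNA 1, 1703 and 1510 for shRNA 2, and 1383 to 1633 in control. The difference between shRNAs was 1.90 (SE 0.11). Ifih1 had 287 and 217 against 677 and 542, with 663 to 707 in control, and a difference between shRNAs of 1.16 (SE 0.12). In both sensors 1 of the 2 shRNA 2 libraries was within the control range.

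Stat2 differed between the shRNAs too, without a full return. It had 1057 and 1183 normalized reads with shRNA 1, 3297 and 2803 with shRNA 2, and 3887, 3995, 3700 and 3954 in control at day 11. With shRNA 2 it was at 78.5% of control, a log2 difference of -0.34 (SE 0.07, adjusted p = 0.000594 by limma), and both libraries were below all controls. Irf9 had 828 and 935, 1830 and 1757, and 1908 to 2058 reads in the same order. Its shRNA 2 difference from control, -0.13 (95% interval -0.26 to 0.00), did not pass the test. Stat2 and Irf9 were the 2 genes with all 4 knockdown libraries below all controls at day 11, as 17.3% of genes were.

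At day 11 Irf1 had 1738 and 1484 normalized reads with shRNA 1 and 2712 and 2269 with shRNA 2, against 1969, 1938, 1805 and 1754 in control. Against control it was -0.21 with shRNA 1 (adjusted p = 0.0398) and 0.40 with shRNA 2 (adjusted p = 0.000746), and the shRNAs differed by 0.60 (SE 0.09, adjusted p = 0.000212 by limma). Without the library labelled shRNA 1 replicate 2, the shRNA 1 difference was -0.10 and no longer called (adjusted p = 0.446). That call was also lost without control replicate 1, 2 or 3, so in 4 of 8 fits that left out 1 library, and its adjusted p ran from 0.00509 to 0.446 over the alternatives. The other 5 shRNA 1 calls remained without shRNA 1 replicate 2, from -1.14 (Ifih1) to -1.99 (Irf7). Without it shRNA 2 was still called above shRNA 1 for 6 genes, from 0.49 (Irf1) to 2.07 (Dhx58), while Mavs (0.22, adjusted p = 0.147) was not. Mavs, Irf3 and Ifnar1 stayed within 0.16 of control with either shRNA at day 11, and none of these 6 differences was called.

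From day 7 to day 11 the arms changed by different ratios. Irf7 was 1.33-fold higher at day 11 than at day 7 in control, 1.38-fold with shRNA 1 and 3.09-fold with shRNA 2. For Dhx58 these ratios were 1.05, 1.25 and 2.69, and for Stat2 1.07, 1.11 and 1.96. The shRNA 1 libraries thus kept about their day 7 distance from control while those of shRNA 2 rose; these ratios are given without a test. With shRNA 1 replicate 1 alone at day 11 the shRNA 1 ratios were 1.34 (Irf7), 1.1 (Dhx58) and 1.05 (Stat2).

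Before day 7 the number of genes that differed between the shRNAs was near the share over all genes. At day 0, 2 of 9 genes were lower with shRNA 1, Dhx58 and Ifnar1, against 34.7% of all genes called (15.8% higher, 18.9% lower). With shRNA 2, Dhx58, Irf9 and Irf1 were lower, against 17.6% (7.38% higher, 10.2% lower). Between the shRNAs, Ifih1 and Irf1 were lower and Irf3 higher with shRNA 2, against 35% (18.6% higher, 16.4% lower). Ifih1 had 651 and 564 normalized reads with shRNA 1 and 503 and 400 with shRNA 2, beside 473 to 610 in control. Its difference between shRNAs was -0.40 (adjusted p = 0.0119 by limma).

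At day 3 Irf1 was higher with each shRNA. With shRNA 1 Ifih1 was also higher and Ifnar1 lower, against 39.4% of all genes called (20.6% higher, 18.7% lower). With shRNA 2 Dhx58 and Irf9 were lower, against 31.4% (16.8% higher, 14.5% lower), and the same 2 genes were lower than with shRNA 1, against 19.6% (10.6% higher, 8.94% lower). Dhx58 had 42.02 and 51.8 reads with shRNA 1 and 26.98 and 18.7 with shRNA 2, beside 40.2 to 74.7 in control. Its difference between shRNAs was -0.59 (adjusted p = 0.0185 by limma). Several calls of days 0 and 3 were lost in some of the 8 fits that left out 1 library. Between shRNAs these were Ifih1 (2 fits), Irf1 (4) and Irf3 (3) at day 0, and Dhx58 (2) and Irf9 (4) at day 3. Against control they were Dhx58 (4) and Ifnar1 (4) with shRNA 1 and Irf1 (2) with shRNA 2 at day 0, and Ifih1 (1) and Ifnar1 (1) with shRNA 1 and Irf9 (4) with shRNA 2 at day 3.

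The fourth comparison tests whether the knockdown effect changed from day to day, as an interaction in 1 fit of all 32 libraries. Between day 3 and day 7 the effect changed in 6 of 9 genes, against 23.1% of 13571 genes (12.9% upward, 10.2% downward). It moved down by -1.68 for Irf7 (SE 0.48, adjusted p = 0.0122), by -1.52 for Stat2 (SE 0.33, adjusted p = 0.00121) and by -1.22 for Ifih1 (SE 0.30, adjusted p = 0.00356). Irf9 (-0.97) and Irf1 (-0.48) also moved down, and Mavs moved up by 0.36. With voom 3 of the 6 calls were lost: Irf7 (-1.85, adjusted p = 0.519; 0.0041 to 0.519 over its alternatives), Ifih1 (-1.38, 0.0542; 0.000492 to 0.0542) and Irf9 (-1.01, 0.0534; 0.00128 to 0.0534). Between day 0 and day 7 it changed in 4 genes, against 29.9% (16.8% upward, 13.2% downward): Stat2, Ifih1 and Irf9 downward and Mavs upward. Of the 32 fits that left out 1 library, 11 lost the call of Mavs and 7 that of Irf9, and the count went as low as 2. For Irf7 and Dhx58, which were at -0.65 at day 0 already, that change was -0.95 for each and did not pass (adjusted p = 0.142 and 0.130). Between day 7 and day 11 limma called none of the 9 with both shRNAs pooled, against 12.7% of genes (5.05% upward, 7.66% downward); 1 of 9 (Mavs, -0.21) had an unadjusted p under 0.05, and voom called 0.

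Other genes of the pathway were taken from lists of 65 genes by role, of which 52 are in the table. At day 7, 46 were tested, 9 were higher and 22 lower in knockdown, with a median of -0.07, beside 24.9% of all genes higher and 22.6% lower. Of 9 further sensors 7 were lower and none higher. Ddx58 (RIG-I), which signals through Mavs as Ifih1 does, fell by 1.31, and Zbp1 and Ddx60, which sense or help to sense nucleic acids, differed by -1.88 and -1.85, both called. The DNA sensor Cgas did not pass the test (0.16, adjusted p = 0.294).

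Of 12 adaptors and their kinases, 2 were higher and 5 lower at day 7, where 24.9% of all genes were higher and 22.6% lower. Trim25, a ligase that activates RIG-I, fell by 0.93, Sting1, the adaptor of Cgas, by 0.48, and Ikbke by 0.48. Tbk1 had 0.12 (adjusted p = 0.123). Among 7 receptors and Janus kinases 1 was higher, Ifngr1 of the interferon gamma receptor by 0.77, and 2 were lower, Ifngr2 and Tyk2 (-0.25), which is about the share over all genes. Ifnar2 (0.01) and Jak1 (0.04) did not pass, like Ifnar1.

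Of 5 other STAT and IRF factors 3 were lower and 1 higher, beside the same 22.6% and 24.9% of all genes, and the median of the 5 was -0.32. Irf4, a factor also active in adipocytes, rose by 1.11. Among 13 negative regulators 5 rose and 5 fell, against 24.9% and 22.6% of all genes. Usp18, which blocks the receptor and is itself interferon-stimulated, fell by 1.81, and Rnf125, a ligase for the RNA sensors, rose by 1.09.

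A list of 12 interferon-stimulated target genes was lower in 12 of 12 at day 7, with a median of -1.84, where 22.6% of all genes were lower and their median was 0.0062. Ifit3, an RNA-binding antiviral protein, differed by -3.26 (SE 0.40) and Isg15, a ubiquitin-like protein, by -1.92 (SE 0.20). At day 11 all 12 were lower with shRNA 1 (22.2% of all genes), and 3 of 12 with shRNA 2, near the 19.4% of all genes. Of the further sensors tested at day 11, 6 of 8 were lower with shRNA 2, with a median of -0.42. All 12 were higher with shRNA 2 than with shRNA 1 (11.6% of all genes). Without the library labelled shRNA 1 replicate 2, 12 of 12 were still lower with shRNA 1 than in control (15.7% of all genes) and higher with shRNA 2 than with shRNA 1 (6.09%). At day 0, 7 of the 12 were lower than control with shRNA 2 (10.2% of all genes), with a median of -0.98. In control, all 12 fell from day 0 to day 3 (38.2%) and all 12 rose from day 3 to day 7 (37.6%). At day 3, 9 of 12 were higher with shRNA 1 than in control (20.6%) and none lower, and with shRNA 2 the 2 higher and 1 lower were near the 16.8% and 14.5% of all genes. On that day 9 of 12 were lower with shRNA 2 than with shRNA 1 (8.94%).

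Of 12 interferon genes listed 3 are in the table and none reached the filter. Ifnb1, which encodes interferon beta, had 12 reads in all in the 4 control libraries at day 7, at most 9 in 1 library, and 3 in the 4 knockdown libraries. It had 0 reads in all 8 libraries at day 3, where a count of 0 allows up to 3 reads per library. No fold change is given at these counts.

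**Figure D3:**
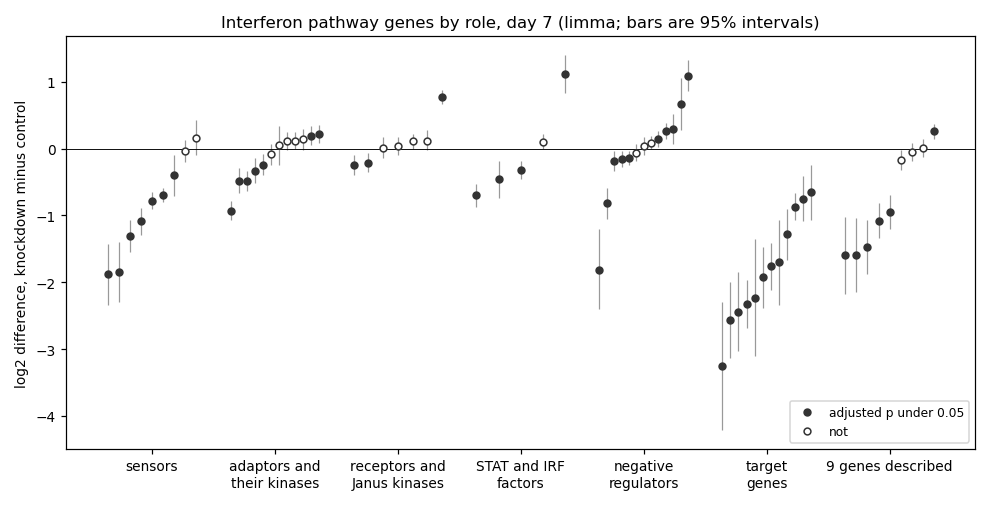
Log2 difference between knockdown and scramble control at day 7 (y axis) for each tested gene, grouped by role (x axis) and sorted by value within a role, with the 9 genes described at the right. Bars are 95% intervals from limma, and filled points have an adjusted p under 0.05. Target genes and most sensors lie below 0, whereas most adaptors, receptors and kinases lie near it.

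Over the 32 libraries, Ifih1, Dhx58, Irf1, Irf7, Stat2 and Irf9 had pairwise Pearson correlations of 0.86 to 0.99, and each of them had between -0.19 and 0.11 with Mavs or Irf3 and between 0.39 and 0.52 with Ifnar1. These points share the day course, libraries and depth, so the values describe the pattern only. Among the 13571 genes compared, those most like Irf7 outside the 9 genes described were Usp18 (0.992), Igtp (0.992) and Rtp4 (0.990). Those most like Stat2, again outside the 9, were Samd9l (0.992), Trim30a (0.992) and Ddx58 (0.989). Irf3 had no partner as close, with Unc45a (0.778), Dffa (0.757) and Tmem131l (0.745) at the top.

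Cell state moved with the groups, at day 3 too. On that day 10 of 10 adipocyte markers were higher with each shRNA (20.6% and 16.8% of all genes). Of 10 preadipocyte and fibroblast markers, 8 were lower and 1 higher with shRNA 1 (18.7% and 20.6%). With shRNA 2, 5 were lower and 4 higher (14.5% and 16.8%). Against shRNA 1, shRNA 2 had 7 higher and 2 lower (10.6% and 8.94%). The summed level of 10 adipocyte markers, all in the table, was 50453 to 54674 normalized reads in control at day 7, 210941 to 215359 with shRNA 1 and 142417 to 172215 with shRNA 2, and 10 of 10 were called higher in knockdown (24.9% of all genes). At day 11 the sums were 57058 to 67080, 124746 to 148949 and 122190 to 134336, and the shRNAs overlapped. The sum of 10 preadipocyte and fibroblast markers at day 7 was 640594 to 705025 in control, 531394 to 590959 with shRNA 1 and 545098 to 549163 with shRNA 2, with 8 of 10 lower (22.6% of all genes). At day 11 it was 739413 to 849615, 629565 to 721527 and 754537 to 764480, so the shRNAs did not overlap, and 5 of 10 were called higher with shRNA 2 than with shRNA 1 (11.6% of all genes) and none lower. Without shRNA 1 replicate 2, which had the lower sum of the pair, 3 of 10 were (6.09%). In control this sum also dipped at day 3, from 785269 to 829928 at day 0 to 332985 to 360973, before the day 7 values, with 8 of 10 lower and then 8 of 10 higher (38.2% and 37.6% of all genes). Macrophage markers, of which 7 of 10 were measured, summed to 527 to 572, 367 to 493 and 469 to 527 at day 7 and to 754 to 864, 972 to 1145 and 987 to 990 at day 11, in the order control, shRNA 1 and shRNA 2. Ptprc, which marks all leukocytes, never passed 3.04 normalized reads in a library. Endothelial and lymphoid markers, 5 of 10 measured, summed to at most 49 in any library. The part of these shifts in the results was not tested, and in bulk RNA fewer cells with a transcript cannot be told apart from less transcript per cell.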

How the data were processed

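RNA from 3T3-L1 cells was sequenced with a TruSeq kit per the labels' protocols. Per the submitters' processing notes, TopHat2 2.1.0, Bowtie2 2.2.6, SAMtools 1.3.1 and HTSeq 0.6.1 were used. The genome build, annotation, strand setting and normalization are not given in the sources used here. The deposited table holds log2 values, as the values themselves show (-1.56 to 17.99), in the form of a regularized log transform, which draws a gene's values towards its mean. Inverting that form gave whole reads: 95.86% of values came within 0.1 of one (20% would by chance), and 288 of 288 values of the 9 genes did. Normalized reads are these reads divided by a size factor. Per kilobase values use exons of protein-coding transcripts in GENCODE M21.

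The 9 genes, the lists and the tests were chosen with earlier results of these data known. limma 3.58.1 (R 4.3.3; trend and robust) was fitted to the deposited log2 values of genes with 2 to the power of the value at least 10 in at least 4 libraries, after a check on simulated data. Separate fits were made per day (knockdown against control; 3 groups for single shRNAs), for the 16 control libraries and for all 32. All 9 genes are described. Beside them, pathway genes on a list are named whatever their values (1 is not reported here), then the 2 largest called day 7 changes per role, Ifit3, Isg15 and the 3 genes most correlated with Irf7, Stat2 and Irf3; Ifngr2 and the markers named were added after their values were seen. Alternatives were no filter, a filter at 50, rescaling, no trend, voom on rebuilt reads, a replicate block, the shRNAs as separate groups, 1 fit of all libraries and leaving out each library.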

Additional observations from a re-analysis of the deposited data

Results flagged for a closer look

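The shRNAs differed from each other in 18 tests of single genes (limma, adjusted p under 0.05), given as the log2 difference of shRNA 2 minus shRNA 1. At day 11 these were Dhx58 1.90, Irf7 1.88, Stat2 1.38, Ifih1 1.16, Irf9 0.98, Irf1 0.60 and Mavs 0.22, the last lost in 7 of 8 fits that left out 1 library. At day 7 they were Dhx58 0.85, Irf7 0.77, Stat2 0.61, Ifih1 0.40, Irf9 0.38 and Irf1 0.25, of which Irf7 was lost in 4 such fits, Ifih1 in 3, and Irf9 and Irf1 in 2 each. At day 3 they were Dhx58 -0.59 and Irf9 -0.33, and at day 0 Ifih1 -0.40, Irf1 -0.12 and Irf3 0.20. The called differences of Dhx58, Ifih1, Irf1 and Irf9 were negative at day 0 or 3 and positive at days 7 and 11. This change across days was not tested. Each of the negative calls was lost in 2 to 4 of the 8 fits, and that of Irf3 in 3. Over all genes tested, 35%, 19.6%, 16.4% and 22% differed between the shRNAs at days 0, 3, 7 and 11.

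The knockdown effect differed between days in 10 tests. Over all genes tested, the effect changed in 23.1% from day 3 to day 7 and in 29.9% from day 0 to day 7. From day 3 to day 7 it changed by -1.68 for Irf7, -1.52 for Stat2, -1.22 for Ifih1, -0.97 for Irf9, -0.48 for Irf1 and 0.36 for Mavs, with the calls of Irf7, Ifih1 and Irf9 lost under voom. From day 0 to day 7 it changed by -1.28 for Stat2, -0.94 for Ifih1, -0.72 for Irf9 and 0.21 for Mavs, the last 2 lost in 7 and 11 of the 32 fits that left out 1 library.

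One library stood apart from its group. Of 36 control groups of 4 libraries examined (9 genes on 4 days), Irf7 at day 3 had 1 library, control replicate 3, at a log2 value of 5.13, far from the other 3 by Dixon's test. Chance marks about 1 in 20 such groups. That library held the fewest Irf7 reads of the series.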

How the results depend on the processing

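Over all alternatives, 3938 values of single genes were recomputed: 3713 kept their direction and their side of the threshold, 153 lost their call, 72 gained one, and none that was called changed sign, while 73 that were called in neither fit changed sign. The 6 calls of knockdown at day 7 were found in every alternative (6 or 7 called). For knockdown at day 0 the number of genes called went from 1 to 0 with the replicate block and with 1 fit of all libraries, and to 2 with the shRNAs as separate groups. At day 3 it went from 1 to 0 with the replicate block and 3 with separate groups. At day 11 it went from 0 to 1 without trend and robust, 5 with separate groups (Dhx58, Ifih1, Irf7, Irf9 and Stat2) and 5 with 1 fit of all libraries. For shRNA 1 at day 0 it went from 2 to 1 with no filter, rescaling, no trend or voom and to 6 with the replicate block; at day 3 it went from 3 to 1 with the block. For shRNA 2 against shRNA 1 it went from 3 to 1 (no trend) and 8 (block) at day 0, from 2 to 1 (no filter, no trend, voom) at day 3, and from 6 to 3 (no trend, voom) at day 7. In the control course, day 11 against day 0 went from 4 to 8 on rescaling and to 1 with all 32 libraries, and day 11 against day 7 from 6 to 1 with all 32. The change of effect from day 3 to day 7 went from 6 to 3 with voom. Irf7 at day 3 did not pass the filter at 50. The cause of these shifts was not tested, and for most of these settings the share over all genes is not given here.

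Leaving out 1 library at a time, knockdown at day 0 had 0 to 2 (0 without control replicate 1, 2 or 4; 2 without shRNA 1 replicate 1), at day 3 1 to 2 (2 without replicate 2 of any arm) and at day 11 0 to 3 (3, Ifih1, Irf9 and Stat2, without shRNA 2 replicate 1). shRNA 1 at day 0 had 0 to 3 (0 without either shRNA 1 library or control replicate 2; 1 without control replicate 1). Between shRNAs there were 0 to 5 at day 0 (1 without either shRNA 1 library, 0 without shRNA 2 replicate 2, 5 without control replicate 4), 0 to 2 at day 3 (0 without replicate 2 of either shRNA, 1 without shRNA 1 replicate 1) and 2 to 6 at day 7 (2 without shRNA 1 replicate 2 or shRNA 2 replicate 1). Control day 11 against day 7 had 3 to 6 (3 without day 11 replicate 1 or 2). The change of effect from day 0 to day 7 had 2 to 4 (2 without shRNA 1 replicate 2 or control replicate 3 of day 0, or either shRNA 1 library or control replicate 3 of day 7), and from day 7 to day 11 0 to 1 (1 without replicate 1 of shRNA 2 or control at day 7, or replicate 2 of either shRNA at day 11). With 1 shRNA library left, that library is assumed to vary like the other groups.

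Deviations of same-numbered libraries from their group means correlated by -0.09 to 0.12 between control groups, with 1 of 24 pairs over 0.1. Within days they correlated by 0 to 0.22, with 3 of 24 pairs over 0.1, all at day 11. No within-day value was negative, and pairs of the 2 shRNAs repeat each other. These values do not settle whether libraries of a day were paired. With the replicate block, Dhx58 at day 0 (-0.64) and Irf1 at day 3 (0.29) lost their calls. Over all genes, knockdown calls with the block were 0 on day 0 (430 without it), 845 on day 3 (3506), 4112 on day 7 (6328) and 1652 on day 11 (4382); separate shRNA groups called 3340 at day 0 and 5311 at day 3. Without trend and robust the calls went from 430 to 261 for knockdown and from 2323 to 1206 for shRNA 2 at day 0, and between shRNAs from 2572 to 1454 at day 3 (1710 with no filter) and from 2183 to 1035 at day 7.

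With libraries set to equal totals, the median over all genes for day 3 against day 0 in control became -0.13, and the fraction of calls in the upward direction went from 50.1% to 38.6%. That share went from 25.1% to 43.3% for knockdown at day 0, 42% to 57% for shRNA 2 at day 0, 53.2% to 42.5% for shRNA 1 at day 7, 45.8% to 61.9% between shRNAs at day 7, and from 56% to 40.7% and 55.9% to 45.3% for the change of effect at day 7 from days 0 and 3. The 7 genes that fell at day 3 did so in every alternative, the smallest step being -0.24 (Ifnar1). Depth limits Irf7 at day 3 and Ifnb1 throughout.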
